A study of Mus musculus with 8 samples.

Results

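Genes of the Notch pathway were examined in RNA-seq libraries of regulatory T cells (Tregs) made in culture. Receptors, a ligand, the nuclear effector and targets were selected by name, 9 genes in all. Of these, 8 have a row among the 19330 genes of the deposited table and all 8 were among the 16434 genes tested. Hes1, the ninth, was not analysed here. The members were chosen with the difference between oxPAPC and Control already known, so that difference is described for them with no p-value. Their calls in the fit over all genes are given as counts beside those of all genes and support nothing.

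Naive CD4+ T cells from the spleen of B6 mice were polarized in vitro into Tregs for 3 days. The 4 oxPAPC libraries come from cells polarized in the presence of oxPAPC, a mixture of oxidized phospholipids, and the 4 Control libraries from cells polarized without it. The labels give neither the age of the mice nor the oxPAPC dose. They also leave out whether replicates are separate mice or cultures, and p-values therefore measure only the spread between these libraries, which may be technical. Total counts of a library ran from 14017583 to 21619731. A single noncoding RNA, Gm26917, took between 8.59% of the counts (Control replicate 3) and 29.1% (Control replicate 2). All 8 genes chosen to check the labelled cell type (Cd3d, Cd3e, Cd3g, Cd4, Foxp3, Il2ra, Ctla4 and Ikzf2) were present, with a summed level of 2096 to 2620 CPM in oxPAPC libraries and 2245 to 2468 CPM in Control libraries. CPM are library-scaled counts (TMM), which set libraries against each other by the genes they share. None of these 8 genes passed edgeR's test at an adjusted p of 0.05. One of them, Il2ra, had an unadjusted p under 0.05 and passed with DESeq2 and limma-voom.

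Notch proteins are receptors at the cell surface that are activated by Delta and Jagged ligands on a neighbouring cell. Ligand binding exposes the receptor to ADAM proteases and then to gamma-secretase, which release its intracellular domain. That domain enters the nucleus, joins the DNA-binding protein RBPJ and Mastermind-like coactivators, and switches on genes such as those of the Hes and Hey repressors, Nrarp and Dtx1. In the T lineage Notch is best known for committing precursors to T cells in the thymus and for its part in the differentiation of helper T cells.

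RBPJ recognises the core letters TGGGAA, and the DNA before the members' starts was searched for them as a description of sequence that the choice of members did not use. The stretches of 250 bases before the RefSeq start (build GRCm38.p6) are shown for Notch3 and Nrarp, which were both lower in oxPAPC libraries and whose windows hold no annotated exon. Capitals mark GGGCGG, the GC box, and CACGTG, an E-box that Hes and Hey repressors can bind, on either strand. Both motifs were added after the data had been seen. The Notch3 window lies at chr17:32166891-32167140 on the minus strand and the Nrarp window at chr2:25180508-25180757 on the plus strand.
Notch3: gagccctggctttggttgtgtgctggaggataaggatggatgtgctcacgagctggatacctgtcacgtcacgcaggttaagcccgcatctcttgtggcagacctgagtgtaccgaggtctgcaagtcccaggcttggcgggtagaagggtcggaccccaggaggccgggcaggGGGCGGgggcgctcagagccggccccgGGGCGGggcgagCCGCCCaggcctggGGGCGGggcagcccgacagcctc
Nrarp: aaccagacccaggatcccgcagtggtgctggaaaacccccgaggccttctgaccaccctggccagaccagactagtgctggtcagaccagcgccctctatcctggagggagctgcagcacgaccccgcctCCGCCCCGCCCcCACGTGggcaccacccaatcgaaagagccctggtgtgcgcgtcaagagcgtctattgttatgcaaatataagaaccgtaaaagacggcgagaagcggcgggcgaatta
The Notch3 window held 4 GC boxes, none overlapping another. The Nrarp window held 2, which share 1 base, and 1 E-box 108 bases before the start. GC boxes were not particular to these members. The windows of Notch1, Notch2 and Jag2 held 5 each and that of Dtx1 held 3, while those of Rbpj held none. Among all 32851 promoter windows of this length in RefSeq, 32.7% held GGGCGG and 6.02% held CACGTG.

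Of 7 members with a promoter entry, 1 held TGGGAA on either strand within 250 bases, against 21.6% of all windows, and none held the longer form GTGGGAA, against 5.42%. The longer form contains the shorter. The exception was Rbpj itself, whose 2 listed starts share part of their windows and lie inside the annotated gene. Annotated exons of the same gene cover 132 bases of its upstream window and all 250 of the other. They also cover all 250 bases of the Dtx1 and Jag2 windows, so these hold transcribed sequence. Its sites are shown with TGGGAA or its reverse complement in capitals. The first stretch lies at chr5:53590185-53590214 and the other at chr5:53590269-53590298, with the letters 149 and 65 bases before the upstream start. Both stretches are printed as the plus strand, and the other holds TGGGAA on the minus strand.
Rbpj, site farther from the start: aatgaaaaaggcTGGGAAcccgcggcgagc
Rbpj, site nearer to the start: gacgctcgcattTTCCCAggacccctcctc
A match of letters is a description of the sequence. The absence of these letters from a window of this length says nothing about binding of RBPJ elsewhere in the locus.

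The receptors differed from each other. Notch3 lies on chromosome 17, from 32120820 to 32166852 (GRCm38). It had 1.12, 1.32, 1.59 and 0.913 CPM in oxPAPC replicates 1 to 4, against 13.7, 20.4, 12.0 and 20.2 CPM in Control replicates 1 to 4. These were 15, 20, 36 and 18 counts in the oxPAPC libraries and 206, 271, 262 and 440 counts in the Control libraries. Every oxPAPC library lay far below every Control library. In bulk RNA, fewer cells of a type and less RNA per cell cannot be told apart, here and for all members. The mean was 1.24 ± 0.289 CPM in oxPAPC and 16.6 ± 4.39 CPM in Control libraries (SD, n = 4 each), a log2 fold change of -3.73 ± 0.26 (SE) or 13.2-fold lower. It was the lowest log2 fold change of all 16434 tested genes. In adult tissue Notch3 is best known from the mural cells of arteries, and in the T lineage from thymocytes.

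Notch1, the main receptor of T cell commitment, was abundant in both groups. It had 220, 203, 315 and 229 CPM in oxPAPC replicates 1 to 4 and 191, 244, 174 and 240 CPM in Control replicates 1 to 4. The ranges overlapped, with oxPAPC replicate 3 above all other libraries. The log2 fold change was 0.19 ± 0.18 (SE), 0.03 without oxPAPC replicate 3 and 0.10 without Control replicate 3.

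Notch2, a receptor also known for marginal zone B cells, had 389, 361, 524 and 380 CPM in oxPAPC replicates 1 to 4 and 304, 353, 268 and 380 CPM in Control replicates 1 to 4. Here too the groups overlapped and oxPAPC replicate 3 stood highest. The log2 fold change was 0.34 ± 0.18 (SE), and 0.21 without oxPAPC replicate 3.

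Jag2, a Jagged ligand, was lower in oxPAPC libraries. It had 1.64, 1.92, 3.09 and 2.03 CPM in oxPAPC replicates 1 to 4, against 9.91, 10.3, 7.31 and 11.5 CPM in Control replicates 1 to 4. The highest oxPAPC value was below the lowest Control value. The mean was 2.17 ± 0.634 CPM in oxPAPC and 9.75 ± 1.75 CPM in Control libraries (SD, n = 4 each), a log2 fold change of -2.14 ± 0.24 (SE). Jag2 lies on chromosome 12, from 112907819 to 112929776.

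Rbpj, the DNA-binding partner of every Notch receptor, went slightly the other way. It had 578, 525, 543 and 477 CPM in oxPAPC replicates 1 to 4 and 436, 436, 441 and 427 CPM in Control replicates 1 to 4. The groups did not overlap, and the Control libraries were nearly identical. The log2 fold change was 0.29 ± 0.15 (SE), 1.22-fold higher. The annotation also holds the pseudogenes Rbpj-ps1 and Rbpj-ps3, and any reads shared with them make the level of Rbpj uncertain.

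**Figure D1:**
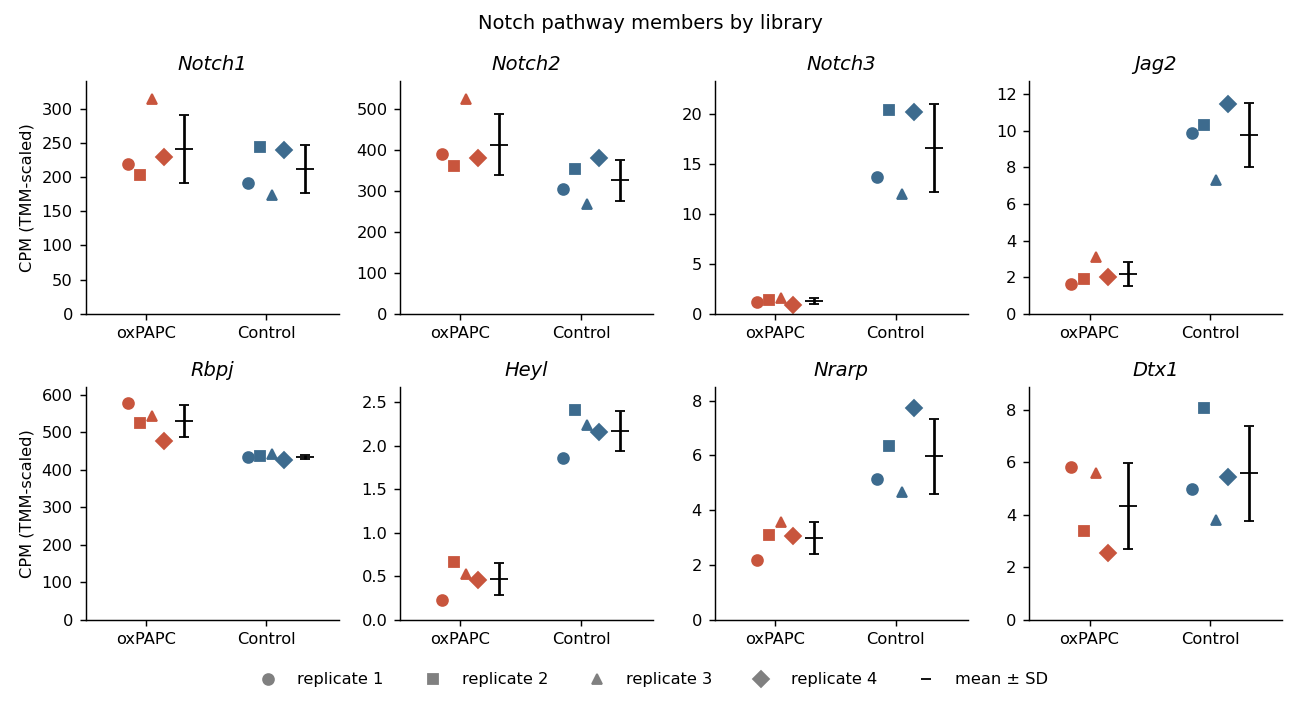
CPM (y axis, linear, from 0) of 8 members in 4 oxPAPC and 4 Control libraries, one symbol per replicate number, with mean ± SD beside each group. Notch3, Jag2, Heyl and Nrarp are lower in every oxPAPC library than in any Control library, Rbpj is higher, and Notch1, Notch2 and Dtx1 overlap.

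Among the targets, Heyl, a transcriptional repressor of the Hes and Hey family, was low throughout. It had 3, 10, 12 and 9 counts in oxPAPC replicates 1 to 4, against 28, 32, 49 and 47 counts in Control replicates 1 to 4. This was 0.468 ± 0.183 CPM in oxPAPC and 2.17 ± 0.231 CPM in Control libraries (SD, n = 4 each). The groups did not overlap, and the log2 fold change was -2.17 ± 0.33 (SE).

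Nrarp, a small ankyrin repeat protein that is induced by Notch and limits its signal, had 2.16, 3.11, 3.57 and 3.04 CPM in oxPAPC replicates 1 to 4. It had 5.12, 6.34, 4.66 and 7.73 CPM in Control replicates 1 to 4. The oxPAPC values were all lower, with a log2 fold change of -0.99 ± 0.24 (SE), 1.99-fold lower. The exons of an antisense gene, Gm38287, cover 79.4% of the Nrarp exons, and since it is not stated whether counting used strand, their reads cannot be told apart. No other annotated gene covered more than 7.50% of the exons of another member.

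Dtx1, a Deltex ubiquitin ligase that acts on Notch, had 5.82, 3.37, 5.60 and 2.54 CPM in oxPAPC replicates 1 to 4 and 4.99, 8.07, 3.79 and 5.43 CPM in Control replicates 1 to 4. The groups overlapped widely, and the log2 fold change of -0.35 ± 0.30 (SE) was near its own error. It was -0.13 without Control replicate 2 and -0.16 without oxPAPC replicate 4.

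The edgeR quasi-likelihood fit over all genes, at an adjusted p of 0.05, called 4 of the 8 members lower and 0 higher. It called 13.3% of all tested genes, 6.52% lower and 6.75% higher. At an unadjusted p under 0.05 the counts were again 4 lower and 0 higher, where 13.9% of all tested genes were lower and 13.6% higher. With limma-voom 0 members were called higher, against 8.18% of all genes, and with DESeq2 1 was, Rbpj, against 8.96%. With the GC and length offset described later Notch1 and Notch2 were called higher, against 10.4% of all genes. Nrarp was not called without Control replicate 4 or with library size scaling. The groups did not overlap for 4 members in the lower direction and for 1, Rbpj, in the higher. Such groups were found for 19.4% of all tested genes, 9.86% lower and 9.50% higher. Nothing is read from these shares, since the members were picked from this contrast. In the order from the lowest log2 fold change upward, Notch3 was gene 1, Heyl gene 31, Jag2 gene 35 and Nrarp gene 530 of 16434. The authors' deposited table gives log2 fold changes of -3.71 for Notch3, -2.12 for Jag2, -2.16 for Heyl, -0.97 for Nrarp and -0.33 for Dtx1. For Rbpj, Notch2 and Notch1 the authors' deposited table gives 0.31, 0.37 and 0.22.

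To compare genes with each other, levels were divided by the length of the merged exons. Rbpj was the highest member per length, with 41.6 ± 3.29 CPM per kilobase in oxPAPC and 34.1 ± 0.453 in Control libraries (SD, n = 4 each). Notch2 followed with 38.4 ± 6.91 in oxPAPC and 30.3 ± 4.63 CPM per kilobase in Control libraries, and the ranges of Rbpj and Notch2 overlapped in both groups. By the length of the longest transcript they did not: the lowest Rbpj library had 87.0 CPM per kilobase and the highest Notch2 library 49.9 in oxPAPC, and 77.9 and 36.2 in Control. Notch1 came next at 17.0 ± 3.50 in oxPAPC and 14.9 ± 2.46 CPM per kilobase in Control libraries. The lowest Notch1 library lay above the highest library of every lower member in both groups.

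The order of the low members by their means differed between the groups. In oxPAPC libraries it ran Nrarp, Dtx1, Jag2, Notch3 and Heyl, from 1.15 ± 0.228 CPM per kilobase for Nrarp to 0.0915 ± 0.0359 for Heyl. Nrarp and Dtx1 overlapped there, as did Notch3 (0.153 ± 0.0357 CPM per kilobase) and Heyl. In Control libraries it ran Nrarp, Notch3, Jag2, Dtx1 and Heyl, from 2.31 ± 0.532 to 0.424 ± 0.0451 CPM per kilobase (SD, n = 4 each). Notch3, at 2.05 ± 0.543 CPM per kilobase, overlapped there with Nrarp above it and with Jag2 and Dtx1 below it. Jag2 and Dtx1 also overlapped with each other, so the Control order of Notch3, Jag2 and Dtx1 is not settled. By its mean Notch3 thus stood next after Nrarp in Control libraries, and last but for Heyl in oxPAPC libraries.

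**Figure D2:**
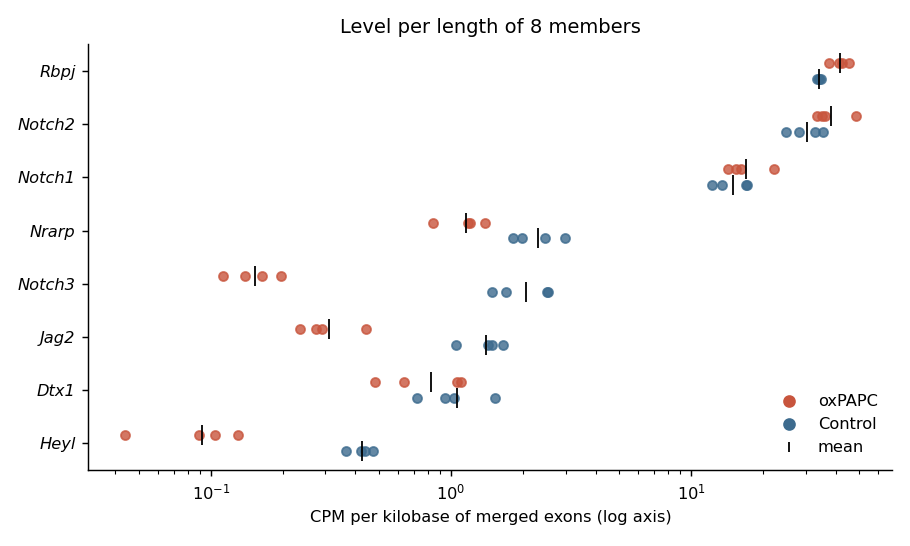
CPM per kilobase of merged exons (x axis, log scale) for 8 members, each point a library and each bar a group mean, with oxPAPC above Control in each row. Rbpj, Notch2 and Notch1 lie above 10 CPM per kilobase in all libraries and the other members below 3.

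Within each library the receptors can be set against each other. Notch3 made up 0.268%, 0.341%, 0.277% and 0.219% of the summed level per length of Notch1, Notch2 and Notch3 in oxPAPC replicates 1 to 4, against 3.91%, 4.83%, 3.84% and 4.58% in Control replicates 1 to 4. Notch2 made up 69.2 ± 0.814% in oxPAPC and 64.2 ± 1.14% in Control libraries, and Notch1 30.5 ± 0.849% in oxPAPC and 31.6 ± 0.826% in Control libraries (SD, n = 4 each). The ratio of Notch2 to Notch1 per length was 2.18 to 2.35 in oxPAPC libraries and 1.91 to 2.10 in Control libraries. The ranges of this ratio did not overlap between groups, but how often ratios of other gene pairs do so was not examined. Its size and the shares depend on the length taken for each gene. By the longest transcript the mean of Notch2 was 1.55 times that of Notch1 in oxPAPC and 1.39 times in Control libraries. These shares and ratios come from the same contrast and are a description.

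**Figure D3:**
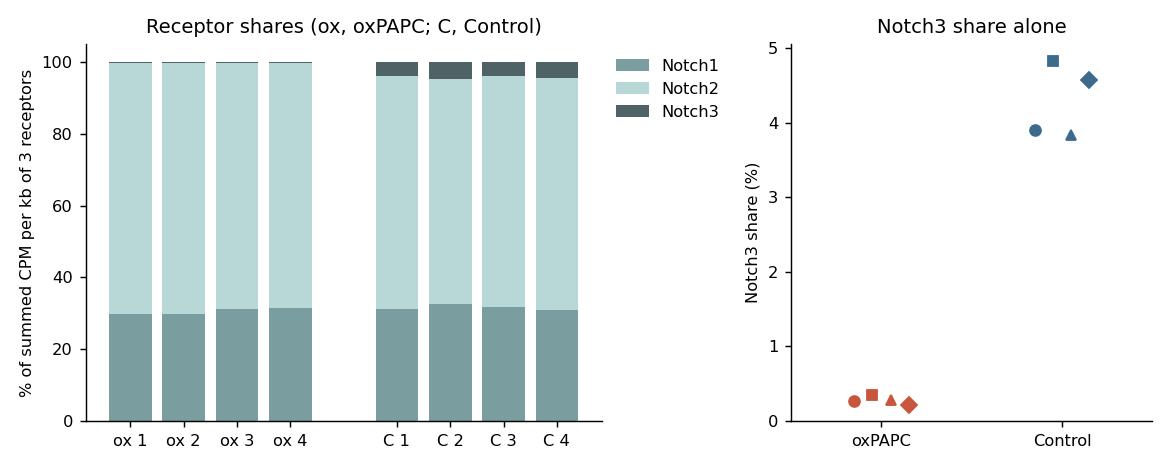
Left, share of Notch1, Notch2 and Notch3 in their summed CPM per kilobase (y axis, percent) in each oxPAPC and Control library. Right, the Notch3 share alone (y axis, percent, from 0), which is below 0.5% in every oxPAPC library and above 3.5% in every Control library.

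Several members varied together inside a group. In Control libraries Notch1, Notch2, Notch3, Jag2 and Nrarp were higher in replicates 2 and 4 than in replicates 1 and 3, and in oxPAPC libraries Notch1, Notch2, Notch3, Jag2 and Nrarp were highest in replicate 3. Genes of high GC content moved with this pattern. The part of GC content in it was not tested, since the offset described next takes GC content and length together. The 10% of genes with the highest GC content deviated from their mean over libraries on average by 0.201 and 0.167 (log2) in Control replicates 2 and 4, and by -0.002 and -0.287 in Control replicates 1 and 3. The deviation was 0.097 in oxPAPC replicate 3 and between -0.150 and 0.009 in the other oxPAPC libraries. Of the members that varied together, the transcripts of Jag2, Notch3 and Notch1 have a GC content of 61.9%, 59.6% and 57.1%, higher than in 98.1%, 95.2% and 88.3% of the genes compared. Nrarp and Notch2 are nearer the middle, with 54.5% and 53.6%, higher than in 77.4% and 72.9%. Dtx1, which did not follow the pattern in oxPAPC libraries, has the highest GC content of the members, 62.5%.

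With an offset that removes each library's trend over GC content and length, an alternative chosen after seeing the data, Notch1, Notch2 and Notch3 spread less. The SD of log2 (CPM + 0.5) of Notch1 in Control libraries was 0.070 with the offset and 0.242 without it, and that of Notch3 was 0.152 with it and 0.381 without. The Control SD was larger with the offset for Rbpj, 0.080 with it and 0.019 without, and for Heyl, 0.163 with it and 0.127 without. With the offset Notch1 had 217 to 297 CPM in oxPAPC and 182 to 205 CPM in Control libraries, and Notch2 had 377 to 494 CPM in oxPAPC and 268 to 331 CPM in Control libraries. Neither receptor's groups then overlapped, and the log2 fold changes were 0.41 for Notch1 and 0.50 for Notch2, where 12.0% of genes had groups apart in the higher direction and 11.6% in the lower. Notch3, Jag2, Heyl and Nrarp had log2 fold changes of -3.46, -1.92, -2.14 and -1.01 with the offset, and their oxPAPC libraries again all lay below the Control libraries.

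**Figure D4:**
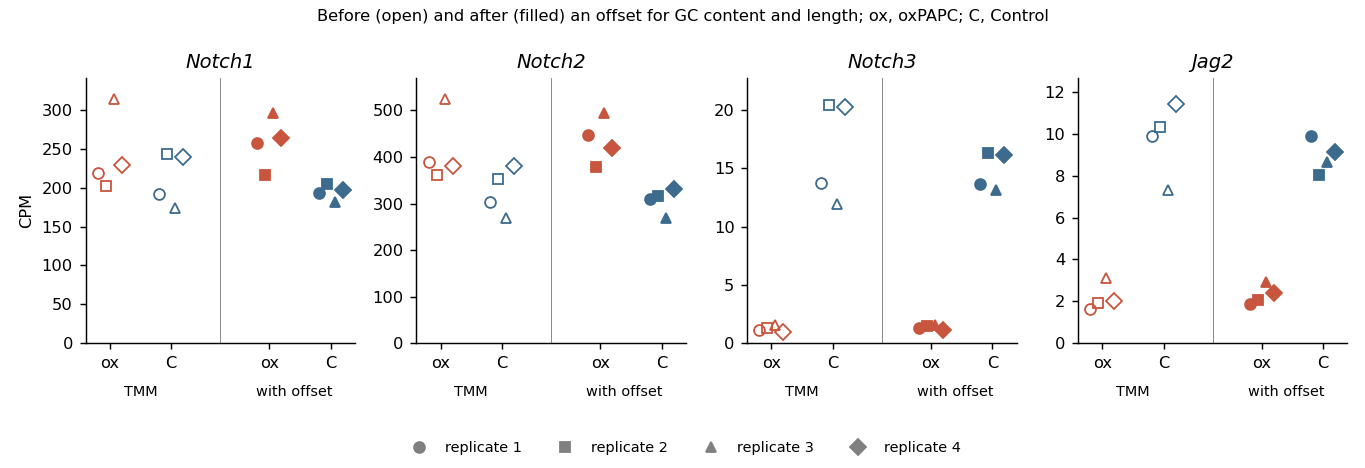
CPM (y axis, linear, from 0) of Notch1, Notch2, Notch3 and Jag2 in each library, with TMM scaling alone (open symbols) and with an added offset for GC content and length (filled symbols), oxPAPC left of Control. With the offset the Control libraries of Notch1 lie within 182 to 205 CPM, below all oxPAPC libraries.

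Genes that mark other cells were set beside the members. Of 8 mural and stromal genes 4 were tested, and 0 passed edgeR's test, 0 also at an unadjusted p under 0.05. Their summed level was 3.62 to 7.27 CPM in oxPAPC and 4.06 to 6.26 CPM in Control libraries. Pdgfrb, Rgs5, Cspg4 and Col3a1 of that list were not analysed here. Of 7 tested B cell genes 4 rose, among them Pax5 and Ebf1, and the list summed to 64.2 to 100 CPM in oxPAPC and 59.7 to 80.8 CPM in Control libraries. Of 6 tested macrophage and dendritic cell genes Mpeg1 and Flt3 rose, and the list summed to 10.9 to 13.1 CPM in oxPAPC and 4.15 to 5.44 CPM in Control libraries. Of the thymocyte genes tested, Dntt fell, with 0.877 CPM in oxPAPC and 2.10 CPM in Control libraries. Cd8a rose, with 6.81 CPM in oxPAPC and 2.17 CPM in Control libraries, and Cd8b1 did not pass. Of the endothelial list Pecam1 was tested and did not pass. The part of other cells in the members' levels was not tested.

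Beyond the members, 76 further genes of the pathway were listed by role and 64 were tested. Of these 10 fell, 2 rose and 52 did not pass. This is 15.6% lower and 3.12% higher, where all tested genes gave 6.52% and 6.75%. The lists were drawn up with earlier results of these data known, so nothing is read from these shares. Their median log2 fold change was -0.04, against -0.01 over all tested genes. Without the genes listed as T lineage targets, 7 of 56 fell and 1 rose.

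The remaining receptor and ligands were low and did not pass. Notch4 had 2.61 ± 0.399 CPM in oxPAPC and 2.61 ± 0.701 CPM in Control libraries (SD, n = 4 each). Jag1 had a log2 fold change of 0.30 ± 0.28 and Dlk1, a noncanonical ligand, of -0.50 ± 0.36 (SE). Dll1 and Dll4, the Delta ligands, were present at counts too low to be tested, with 3, 15, 14 and 7 counts of Dll1 in oxPAPC and 2, 2, 0 and 4 counts in Control libraries. Dll4 had 12, 9, 21 and 9 counts in oxPAPC and 0, 6, 8 and 4 counts in Control libraries.

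Of 5 genes that act on ligands in the signal-sending cell 2 fell. Neurl1b, a Neuralized ubiquitin ligase that drives ligand endocytosis, fell by 1.12 ± 0.18 in log2 terms (SE, edgeR adjusted p = 0.000932), to 23.9 ± 3.10 CPM in oxPAPC, against 52.1 ± 12.9 CPM in Control libraries (SD, n = 4 each). Mib2, a Mind bomb ligase with the same role, fell by 0.74 ± 0.18 (SE, edgeR adjusted p = 0.0140), a call lost without Control replicate 2 (adjusted p = 0.0501) and with library size scaling (0.0689). Its relative Mib1 had a log2 fold change of -0.24 and Neurl3 of 0.04, and neither passed. The Fringe glycosyltransferases and the other sugar-adding enzymes of the receptor, 6 genes, did not pass, with 1 at an unadjusted p under 0.05. Of these Lfng had a log2 fold change of 0.44 and Pofut1, which adds O-fucose to Notch, of -0.09, which turned to 0.05 with library size scaling. With the offset for GC content and length Lfng passed (adjusted p = 0.0227).

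The proteases of receptor activation mostly did not pass. Of 10 genes only Aph1b, a subunit of gamma-secretase, fell, by 1.36 ± 0.23 (SE, edgeR adjusted p = 0.00186), to 2.24 ± 0.366 CPM in oxPAPC, against 5.71 ± 1.18 CPM in Control libraries (SD, n = 4 each). Aph1c, its close paralog, could share reads with it and had a log2 fold change of -0.25. Furin, which cleaves the receptor on its way to the surface, had 421 ± 103 CPM in oxPAPC and 298 ± 75.8 CPM in Control libraries and passed only with the offset for GC content and length (adjusted p = 0.0132) among the settings run. Psen2, a catalytic subunit of gamma-secretase, had 36.4 ± 5.78 CPM in oxPAPC and 26.0 ± 3.84 CPM in Control libraries (SD, n = 4 each). Its groups did not overlap, and at a log2 fold change of 0.49 it did not pass (edgeR adjusted p = 0.0514). It was 1 of 2 genes of the list that were higher at an unadjusted p under 0.05. Adam10, the main sheddase of Notch, had a log2 fold change of -0.14.

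Among nuclear cofactors, Maml3, a Mastermind-like coactivator of the RBPJ complex, fell by 1.51 ± 0.21 (SE, edgeR adjusted p = 0.000408). It had 3.79 ± 0.727 CPM in oxPAPC and 10.8 ± 1.88 CPM in Control libraries (SD, n = 4 each). Maml1 and Maml2 had log2 fold changes of -0.28 and 0.03 and did not pass. Kat2a, a histone acetyltransferase, rose by 0.69 ± 0.18 (SE, edgeR adjusted p = 0.0213), a call lost without oxPAPC replicate 3 or 4 or Control replicate 1 or 2 or with the share of Gm26917, an abundant noncoding RNA, as a covariate (adjusted p of 0.0523 to 0.0689). The coactivators Crebbp and Ep300 had log2 fold changes of 0.02 and -0.29 and did not pass, with Crebbp changing sign without oxPAPC replicate 3 or Control replicate 1 and with limma-voom.

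Of 14 corepressor genes 2 fell. Cir1, a corepressor that binds RBPJ, fell by 0.79 ± 0.20 (SE, edgeR adjusted p = 0.0190), a call lost without oxPAPC replicate 1 (adjusted p = 0.0600) and with library size scaling (0.113). L3mbtl3, which represses Notch targets through RBPJ, fell by 0.41 ± 0.13 (SE, edgeR adjusted p = 0.0468). Its call was lost in 11 of 17 settings, with adjusted p of 0.0611 to 0.403, among them leaving out any library but oxPAPC replicate 3. Ncor1 and Tle3 had log2 fold changes of -0.37 and 0.13 and did not pass. Of 9 genes of receptor turnover and trafficking Nedd4, a ubiquitin ligase, fell by 0.98 ± 0.15 (SE, edgeR adjusted p = 0.000916), to 19.5 ± 3.49 CPM in oxPAPC, against 38.7 ± 4.58 CPM in Control libraries (SD, n = 4 each). Dtx3l, a relative of Dtx1, had 0.39 and Itch -0.20, and neither passed.

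Of the other Hes and Hey genes, Hes6 was tested and did not pass, with 17.7 ± 2.72 CPM in oxPAPC and 18.3 ± 4.70 CPM in Control libraries (SD, n = 4 each). Hey1 was too low to be tested, with 2, 3, 2 and 0 counts in oxPAPC and 3, 15, 9 and 11 counts in Control libraries. Genes reported as Notch targets in the T lineage went both ways. Of 8 tested, Il7r, Trib2 and Tcf7 fell and Myc rose. Trib2, a pseudokinase, stood at -1.30 ± 0.17 (log2 ± SE, edgeR adjusted p = 0.000333), with 16.5 ± 2.73 CPM in oxPAPC, against 40.7 ± 8.44 CPM in Control libraries (SD, n = 4 each). Il7r, which encodes the interleukin 7 receptor, had a log2 fold change of -1.78 and Myc, the growth regulator, of 0.80 (edgeR adjusted p of 2.3e-05 and 0.0128). Tcf7, which encodes TCF-1, had -0.61 (edgeR adjusted p = 0.0439) and lost its call in 10 of 16 settings, with adjusted p of 0.0548 to 0.224, among them leaving out any library but oxPAPC replicate 3 and Control replicate 1. Il2ra, which encodes the interleukin 2 receptor alpha chain, did not pass at 0.60 (edgeR adjusted p = 0.0902), though it did with DESeq2, limma-voom and the offset (adjusted p of 0.0253, 0.0498 and 0.0342). Ccnd3 had -0.07 and did not pass.

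**Figure D5:**
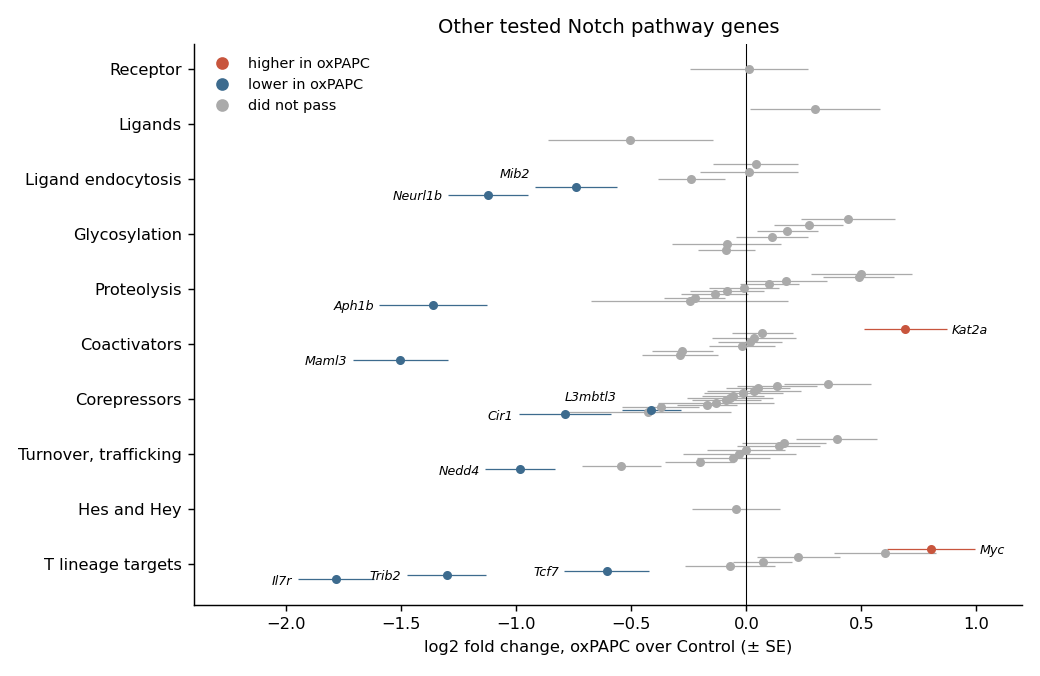
Log2 fold change of oxPAPC over Control (x axis, with SE) for 64 tested Notch pathway genes outside the members, by role, coloured by the call at an adjusted p of 0.05 across all genes. Most genes lie near 0, and the 10 that fell and 2 that rose are named.

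The genes whose pattern over the 8 libraries was most like that of Notch3 were found from log2 (CPM + 0.5) centred on each gene's mean, among 11560 genes with a mean of at least 1 CPM. They were Nptxr, Soga1, Ybx2, Rtn4rl1, Mcf2l and H2-Eb2, with root mean square differences from Notch3 of 0.401 to 0.680 (log2). Nptxr, a pentraxin receptor of neurons, came closest, with 0.853 ± 0.273 CPM in oxPAPC and 7.72 ± 1.45 CPM in Control libraries (SD, n = 4 each). Mcf2l, a guanine nucleotide exchange factor, had 6.61 ± 0.778 CPM in oxPAPC and 30.2 ± 8.12 CPM in Control libraries. Among the members the same measure was 0.690 for Jag2, 0.939 for Heyl and 1.21 for Nrarp, and 1.49 to 1.81 for Dtx1, Notch1, Rbpj and Notch2. Centring was over both groups, so the measure keeps the difference between oxPAPC and Control that was known when Notch3 was chosen. The genes named as closest were all lower in oxPAPC, with log2 fold changes from -3.62 (Ybx2) to -2.19 (Mcf2l). Likeness apart from that difference was not tested, and nothing about shared regulation is read from this measure.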

How the data were processed

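RNA from 8 libraries was isolated on columns and selected for poly(A), per the labels' protocols. The submitters' processing notes list STAR 2.7.8a, featureCounts 2.0.2, DESeq2 1.30.1 and GRCm38.p6. A strand setting is not stated, so antisense reads may be included. The authors deposited 1 table of whole-number counts by gene and library, without scaling. Beside them, per the file headers, stand the authors' mean scaled signal, log2 fold changes with errors, test score, linear fold and p-values. Of these only the authors' deposited log2 fold changes are quoted. The second highest count of every gene in the table is 5 or more.

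TMM scaling, filterByExpr and the quasi-likelihood test of edgeR 4.0.16 (R 4.3.3) compared oxPAPC with Control. P-values were adjusted by Benjamini-Hochberg over all tested genes, with a threshold of 0.05. A standard error is |log2 fold change| over the root of the F statistic. The common biological coefficient of variation was 0.207. Library totals, given with the results, limit precision for low genes. Tested on simulated data for oxPAPC over Control with 16434 genes, the fit found 8 of 67 genes at 1.5-fold, 36 of 67 at 2-fold and 65 of 66 at 4-fold. Of its 117 calls, 8 were false. The simulation changed a far smaller share of genes than was called here, and it held no GC trend of libraries. These rates may therefore not hold for these data. Exon lengths and overlaps were read from GENCODE M21, which holds 97.8% of the identifiers, at the same coordinates. Promoters are from RefSeq, where 7 of 9 members matched by symbol. Protein sequences were not used here.

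Members and lists were chosen with earlier results of these data known. The pathway genes named are the 12 that passed and, from each role list, the 2 with the highest mean CPM that did not. Aph1c, Psen2, Maml1, Maml2, Dll1, Dll4 and Hey1 were added after their values were seen. Likeness to Notch3 leaves out members, predicted genes and receptor segments. Alternatives were RLE and library size scaling, no filter, a mean of at least 5 CPM, DESeq2 1.42.0, voom with quality weights (limma 3.58.1), a replicate block, the Gm26917 share as covariate and each library left out. A loess offset (span 0.5) for GC and length, on 16066 genes, was chosen after seeing the data. Some items are not reported here.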

Additional observations from a re-analysis of the deposited data

Results flagged for a closer look

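In 5 of the 82 sets of 4 libraries examined, 1 library stood apart from the other 3. Chance marks about 1 set in 20, or 4.1 here, and no member was among them. The coactivator gene Ep300 measured 89.9 CPM in Control replicate 1 and 112 to 113 CPM in the remaining Control libraries. Dtx3l was also low in that library, at 26.2 CPM, with the remaining Control libraries at 38.2 to 40.1 CPM. Control replicate 3 was high for Cir1, at 15.7 CPM beside 10.2 to 10.9 CPM, and for Il7r, at 122 CPM beside 78.5 to 84.8 CPM. Ccnd3 measured 328 CPM in oxPAPC replicate 3, and the remaining oxPAPC libraries lay at 215 to 221 CPM.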

How the results depend on the processing

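The log2 fold changes of all 8 members kept their sign under every setting that tested them. A filter at 5 CPM removed Heyl, Nrarp and Dtx1. Leaving out single libraries gave -3.90 to -3.59 for Notch3, -2.38 to -2.04 for Jag2, -2.35 to -1.98 for Heyl and -1.10 to -0.84 for Nrarp. The smaller changes moved more, 0.0341 to 0.26 for Notch1, 0.21 to 0.42 for Notch2 and -0.52 to -0.13 for Dtx1, and Rbpj had 0.25 to 0.34. Rbpj had 0.41 with library size scaling, which moved the median of all genes by 0.13, and 0.30 relative to that median. Of the 12 pathway genes that passed, 7 kept their call under every setting that tested them.

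In all, 2182 genes were called, 1110 of them higher and 1072 lower. With library size scaling the lower calls came to 458, and 6 in the pathway, and 71.6% of calls were higher instead of 50.9%. With the GC and length offset the higher calls came to 1671, and 7 in the pathway, where DESeq2 made 4 and the reported fit 2. Single libraries left out moved all calls to 1390 to 2134, higher calls to 710 to 1057 and lower calls to 680 to 1144. In the pathway they gave 8 to 11 calls, 1 to 3 higher and 7 to 10 lower. The lowest totals, 1390 calls, 710 higher and 680 lower, came without Control replicate 2, and 694 lower calls came without oxPAPC replicate 4. A replicate block gave 1453 calls, 708 of them lower, and Mib2 did not pass (adjusted p = 0.0544). Deviations of libraries with the same number correlated at 0.38, -0.051, -0.38 and -0.055. Of the 8 libraries 2 matched their own number best. These deviations also hold other differences between libraries, so they do not decide whether numbers pair samples. The numbers are not treated as pairs because the labels do not say that they pair samples.

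Pathway genes that had not passed changed sign as follows. With library size scaling Pofut1 had 0.0473, Hes6 0.11 and Ccnd3 0.0891. With limma-voom Neurl3 had -0.0622 and Crebbp -0.0087, and with the Gm26917 covariate Hes6 had 0.14. Leaving out single libraries gave -0.10 to 0.20 for Notch4, -0.0914 to 0.18 for Neurl3, -0.0524 to 0.0662 for Crebbp, -0.20 to 0.10 for Hes6 and -0.24 to 0.0097 for Ccnd3. The cause was not tested.

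By the longest transcript, levels in CPM per kilobase were 25.5 in oxPAPC and 22.4 in Control for Notch1, 0.425 in oxPAPC and 1.91 in Control for Jag2, 96.8 in oxPAPC and 79.3 in Control for Rbpj, and 0.478 in Control for Heyl. The order of the members was as by merged exons, but Rbpj no longer overlapped with Notch2 (39.4 in oxPAPC and 31.1 in Control), and Notch2 and Notch1 overlapped in Control. By raw counts the receptor shares were 36.7% in oxPAPC and 38.2% in Control for Notch1, 63.1% in oxPAPC and 58.9% in Control for Notch2, and 0.189% in oxPAPC and 2.95% in Control for Notch3. With GTGGGAA in place of TGGGAA 0 members had a match. Depth limits Heyl most among the members, at 3 to 12 counts in an oxPAPC library.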

Other observations

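The nearest tested protein-coding genes on either side of the 8 members, a choice made after the data had been seen, gave 16 neighbours. Of these 4 passed the test, where 13.3% of all tested genes did, and 3 of the 4 are described. Nudt14, which encodes a UDP-glucose pyrophosphatase 4.51 kb from Jag2, fell (-0.53 ± 0.15, log2 ± SE, edgeR adjusted p = 0.0330), and Gpr132, on the far side of Jag2, had -0.17 and did not pass. Rrp1b, 58 kb from Notch3, rose (0.54 ± 0.16, edgeR adjusted p = 0.0375), opposite in sign to Notch3. Ephx3, on the far side of Notch3, had 0.569 CPM in oxPAPC and 0.980 CPM in Control libraries and did not pass. Neither neighbour of Heyl (Ppie and Pabpc4) or of Nrarp (Nsmf and Tor4a) passed. Oas3, an interferon-inducible antiviral gene 41.2 kb from Dtx1, rose (2.52 ± 0.24, edgeR adjusted p = 2.41e-05), with 22.4 CPM in oxPAPC and 3.92 CPM in Control libraries.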
